A study of Mus musculus with 7 samples.

Results

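The genes of antigen presentation by the major histocompatibility complex (MHC) were followed across 7 mouse liver libraries. They were taken as every gene whose symbol starts with H2-, the mouse MHC prefix, together with B2m, Cd74, Ciita, Tap1, Tap2, Tapbp, Psmb8, Psmb9, Psmb10 and Nlrc5. That rule uses names and no measured values, and it gave 41 of the 27810 genes listed. Of the 41, 31 carry the H2- prefix and 36 lie on chromosome 17. Bulk RNA sequencing had been done on livers of wild-type (WT) male C57BL/6J mice with diet-induced NASH, a fatty liver disease with inflammation. All of the mice ate a diet called WD, with 40% fat, 20% fructose and 2% cholesterol, from 5 weeks of age. At 32 weeks of feeding each was given 1 tail-vein injection, and tissue was collected after 40 weeks. The 3 MSC libraries (replicates 0, 1 and 2) are from mice given mesenchymal stromal cells of human umbilical cord (hUC-MSCs), and the 3 vehicle libraries (replicates 1, 3 and 4) are from mice given PBS. A further vehicle library, replicate 6, has the word Cancer in its label without a statement of what was sampled, and it was kept apart as a group of 1. Every group therefore carries the diet, and no library from mice on another diet is used here. No label states that each library is a separate animal, so the p-values describe the spread between libraries, which may be partly technical.

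MHC class I molecules pair a heavy chain with β2-microglobulin (B2m) and show peptides cut by the proteasome to CD8+ T cells; nearly all nucleated cells carry them. Class II molecules pair an α and a β chain, travel with the invariant chain Cd74 and show peptides from engulfed material to CD4+ T cells. In liver, class II is carried mainly by dendritic cells, B cells and macrophages, whereas hepatocytes normally carry little. Nlrc5 is the master activator of class I genes and Ciita that of class II genes.

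The promoters of both classes carry known control elements, so 5 are printed: the most abundant gene of each class I kind and the 2 most abundant class II chains with a listed promoter. The sequences are from RefSeq, build GRCm38.p6, on the strand of the gene, and belong to the classical class I gene H2-K1 (chr17:34000348-34000597, minus strand), the liver-rich class Ib gene H2-Q10 (chr17:35469839-35470088, plus strand), B2m (chr2:122147437-122147685, plus strand), the class II α chain H2-Aa (chr17:34287824-34288073, minus strand) and the class II β chain H2-Eb1 (chr17:34305721-34305866, plus strand). Each ends just before the gene start, and bases that overlap annotated exons were left off. Capitals mark 5 motifs searched on both strands: the Y box is ATTGG, and an extended Y box that contains it is CTGATTGG. The X box core is TNGCAAC, with N any base. The κB core is GGGATTCCC, and the motif of the interferon-stimulated response element (ISRE) type is TTTCACTT.
H2-K1: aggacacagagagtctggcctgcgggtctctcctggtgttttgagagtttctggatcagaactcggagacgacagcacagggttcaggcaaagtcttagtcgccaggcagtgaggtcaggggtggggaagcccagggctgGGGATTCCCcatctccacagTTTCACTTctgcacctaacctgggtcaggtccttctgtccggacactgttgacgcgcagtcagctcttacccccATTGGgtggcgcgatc
H2-Q10: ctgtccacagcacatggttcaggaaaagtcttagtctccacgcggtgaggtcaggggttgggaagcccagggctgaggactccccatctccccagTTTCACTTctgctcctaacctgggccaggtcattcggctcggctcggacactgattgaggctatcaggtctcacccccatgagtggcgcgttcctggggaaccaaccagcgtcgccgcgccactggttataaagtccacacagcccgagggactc
B2m: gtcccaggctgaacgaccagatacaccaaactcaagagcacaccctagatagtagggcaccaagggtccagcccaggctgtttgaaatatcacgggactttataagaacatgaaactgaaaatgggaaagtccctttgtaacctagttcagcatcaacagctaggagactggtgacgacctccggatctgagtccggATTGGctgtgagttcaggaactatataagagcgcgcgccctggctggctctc
H2-Aa: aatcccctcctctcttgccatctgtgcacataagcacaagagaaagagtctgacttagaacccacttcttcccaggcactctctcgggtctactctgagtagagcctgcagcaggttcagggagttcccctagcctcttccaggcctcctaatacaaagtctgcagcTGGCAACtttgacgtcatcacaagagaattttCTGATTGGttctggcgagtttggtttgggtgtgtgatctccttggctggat
H2-Eb1: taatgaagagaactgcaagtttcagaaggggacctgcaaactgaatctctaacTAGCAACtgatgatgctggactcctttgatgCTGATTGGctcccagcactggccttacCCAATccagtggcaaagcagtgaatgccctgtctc
H2-K1 holds the κB core, the ISRE-type motif and a Y box, whereas H2-Q10 holds the ISRE-type motif and none of the other 4. B2m holds a Y box. H2-Aa and H2-Eb1 each hold an X box core upstream of an extended Y box, and H2-Eb1 also has a Y box on the opposite strand nearer to its start. Among 32851 RefSeq windows of 250 bases before a gene start, 33.8% hold the Y box, 3.83% the extended Y box, 8.77% the X box core, 0.301% the κB core and 1.36% the ISRE-type motif. The motif letters were chosen after these sequences had been read, and a match is a description of the letters, not a bound site.

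Values are FPKM, fragments scaled by transcript length and library size, and sequencing depth is not known, because the deposited table gives no counts. The libraries held 9655 to 12041 genes at 1 FPKM or more. Transcripts of the mitochondrial genome made up 36.4% of MSC replicate 1 and 16.5% to 23.3% of the other 6 libraries. MSC replicate 1 also had the highest summed FPKM, 514584, against 383776 to 455091 in the others. Albumin, the main hepatocyte product, was between 12350 and 28892 FPKM in every library. The 41 genes took between 0.540% and 0.896% of the summed FPKM. Of them, 33 reached 1 FPKM in at least 1 library and 30 had a mean of at least 1 FPKM over the 7 libraries.

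**Figure D1:**
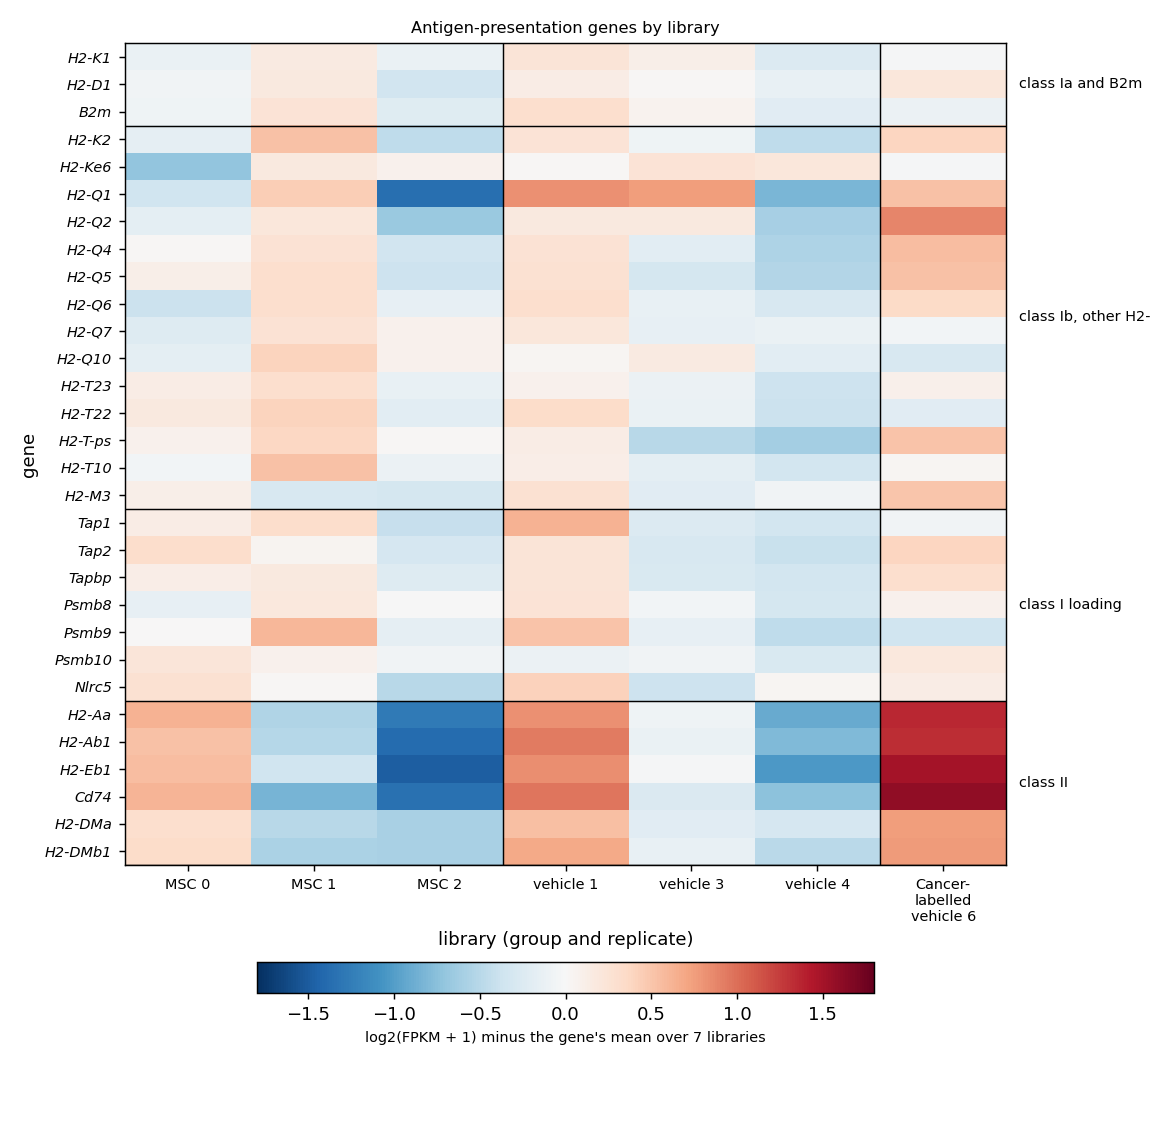
Heat map of the 30 genes with a mean of at least 1 FPKM (rows, grouped by role) in the 7 libraries (columns). Color is log2(FPKM + 1) minus the gene's mean over the 7 libraries. The 6 class II rows share 1 pattern across columns, red in the Cancer-labelled library and blue in MSC replicate 2, while the rows of H2-K1, H2-D1 and B2m stay pale.

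The classical class I genes and B2m were abundant, with a narrower range over the libraries in FPKM than the class II chains. B2m, the light chain, was at 1519, 1889 and 1372 FPKM in MSC replicates 0, 1 and 2, at 1979, 1669 and 1386 FPKM in vehicle replicates 1, 3 and 4, and at 1483 FPKM in the Cancer-labelled library. H2-K1 (ENSMUSG00000061232), a classical heavy chain, was at 293, 356 and 294 FPKM in the MSC libraries, 375, 344 and 270 FPKM in the vehicle libraries and 313 FPKM in the Cancer-labelled one. H2-D1, the other classical heavy chain, was at 220, 261 and 181 FPKM, then 253, 233 and 211 FPKM, then 264 FPKM. The MSC and vehicle libraries overlapped for all 3 genes. The highest library stood 1.44-fold over the lowest for B2m, 1.39-fold for H2-K1 and 1.46-fold for H2-D1, and the ratio of B2m to H2-K1 stayed between 4.66 and 5.31. With quantile normalization the range of B2m over the 7 libraries widened from 0.53 to 1.37 on the log2(FPKM + 1) scale.

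Among the class Ib genes, the less polymorphic relatives of the classical heavy chains, H2-Q10 was the most abundant. It encodes a secreted class I protein made mainly by liver. It was at 320, 474 and 378 FPKM in the MSC libraries, 368, 402 and 315 FPKM in the vehicle libraries and 294 FPKM in the Cancer-labelled library. The Cancer-labelled library was the lowest of 7, also with median centring, but with scaling to TPM or quantile normalization vehicle replicate 4 was the lowest. H2-T23, which encodes Qa-1, the ligand of the NKG2A receptor of natural killer cells, was at 58.6, 65.9 and 48.7 FPKM, then 56.2, 49.2 and 41.1 FPKM, then 56.8 FPKM. H2-T22, a ligand of some γδ T cell receptors, was at 27.5, 32.5 and 21.1 FPKM, then 30.6, 22.2 and 18.4 FPKM, then 21.0 FPKM. For both, the MSC and vehicle libraries overlapped. H2-Q4 was at 22.6, 27.0 and 17.3 FPKM, then 27.0, 19.5 and 14.8 FPKM, then 33.1 FPKM. H2-Q6 lay between 15.3 and 26.2 FPKM and H2-Q7, part of Qa-2, between 11.5 and 16.6 FPKM.

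H2-Q1 varied more than the class Ib genes just named. It was at 15.6, 27.8 and 7.29 FPKM in the MSC libraries, 36.6, 35.0 and 11.0 FPKM in the vehicle libraries and 29.6 FPKM in the Cancer-labelled library. MSC replicate 2 and vehicle replicate 4 were the lowest, so the low libraries came from both groups. The low end held H2-Q5 (2.33 to 5.95 FPKM), H2-K2 (2.44 to 5.85 FPKM), H2-M3, which presents formylated peptides (1.17 to 2.85 FPKM), H2-Q2 (0.361 to 2.96 FPKM), H2-T10 (0.752 to 2.20 FPKM) and the pseudogene H2-T-ps (0.518 to 2.29 FPKM). Under a mean of 1 FPKM, H2-T24 lay between 0.439 and 1.77 FPKM, H2-Bl between 0.258 and 1.96 FPKM, H2-M2 between 0.0573 and 2.39 FPKM, and H2-M5 and the pseudogene H2-M6-ps reached at most 0.0571 and 0.251 FPKM. The annotation calls H2-K2 a transcribed pseudogene and H2-Q5 and H2-T10 polymorphic pseudogenes. H2-Ke6, which carries the prefix for its position and encodes a steroid dehydrogenase, was at 6.96 FPKM in MSC replicate 0 and between 11.8 and 14.4 FPKM in the other 6 libraries. Several of these genes share sequence with others, counted over all 75-base stretches of the longest coding transcript. H2-Q5 and H2-T10 list no coding transcript, so their longest transcript other than a retained intron was used. The share also found in another gene was 21.7% in H2-Q4, 21.1% in H2-Q6, 21.7% in H2-Q7, 26.1% in H2-T22, 23.3% in H2-T10, 20.8% in H2-Q5 and 17.3% in H2-Q1. In H2-Ke6 it was 52%, with the gene Gm20427. It was 1.55% in H2-K1, 7.10% in H2-D1 and 0 in B2m. Levels of the genes with 17.3% or more are therefore uncertain in how reads were divided.

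The peptide supply genes were low beside the heavy chains. Tap1 and Tap2 form the pump that carries peptides into the endoplasmic reticulum. Tap1 was at 4.31, 5.04 and 2.64 FPKM in the MSC libraries, 6.49, 3.09 and 2.87 FPKM in the vehicle libraries and 3.66 FPKM in the Cancer-labelled one, and Tap2 was at 7.19, 5.75 and 4.33 FPKM, then 6.67, 4.38 and 3.98 FPKM, then 7.54 FPKM. The groups overlapped for both. Tapbp (tapasin; 17.5% of its stretches are shared with other genes), which bridges the pump and class I, was at 17.4, 18.0 and 13.4 FPKM, then 18.8, 12.9 and 12.5 FPKM, then 19.8 FPKM. Nlrc5 was at 3.97, 3.18 and 1.89 FPKM, then 4.47, 2.17 and 3.20 FPKM, then 3.50 FPKM, with its lowest value in MSC replicate 2 and its highest in vehicle replicate 1.

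Psmb8, Psmb9 and Psmb10 are the catalytic subunits that replace Psmb5, Psmb6 and Psmb7 in the immunoproteasome. Psmb9 was at 3.66, 6.02 and 3.12 FPKM in the MSC libraries, 5.58, 3.18 and 2.35 FPKM in the vehicle libraries and 2.62 FPKM in the Cancer-labelled one. Psmb8 lay between 5.21 and 8.19 FPKM and Psmb10 between 9.46 and 13.7 FPKM. The constitutive partner was higher in every library for all 3 pairs. The ratio of Psmb8 to Psmb5 lay between 0.0979 and 0.150, that of Psmb9 to Psmb6 between 0.0922 and 0.223, and that of Psmb10 to Psmb7 between 0.392 and 0.637.

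Class II showed a different picture, with levels that ranged over several-fold in a largely shared order. Cd74, the invariant chain, was at 88.1, 31.6 and 22.0 FPKM in MSC replicates 0, 1 and 2, at 113, 47.9 and 33.8 FPKM in vehicle replicates 1, 3 and 4, and at 175 FPKM in the Cancer-labelled library. H2-Aa (ENSMUSG00000036594) was at 19.4, 8.04 and 4.47 FPKM, then 22.2, 11.5 and 6.00 FPKM, then 32.6 FPKM. Its partner, the β chain H2-Ab1, was at 20.9, 9.65 and 4.83 FPKM, then 27.9, 13.0 and 7.75 FPKM, then 37.3 FPKM. All 3 genes were highest in the Cancer-labelled library, followed by vehicle replicate 1 and MSC replicate 0, and lowest in MSC replicate 2, so high and low libraries came from both groups. H2-Eb1 was at 26.8, 13.7 and 5.80 FPKM, then 32.9, 17.7 and 8.23 FPKM, then 52.5 FPKM, in that same order. The highest library stood 7.30-fold over the lowest for H2-Aa, 7.71-fold for H2-Ab1, 9.05-fold for H2-Eb1 and 7.94-fold for Cd74.

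The chains kept their proportions while their level moved. The ratio of H2-Ab1 to H2-Aa lay between 1.08 and 1.29, that of H2-Eb1 to H2-Aa between 1.30 and 1.71 and that of Cd74 to H2-Aa between 3.93 and 5.64. None of the 75-base stretches of H2-Aa, H2-Ab1, H2-Eb1 or Cd74 occurs in another gene, whereas 19.1% of those of H2-DMb1 do. The peptide-exchange genes followed the chains at lower levels. H2-DMa was at 1.75, 0.585 and 0.494 FPKM in the MSC libraries, 2.23, 0.937 and 0.802 FPKM in the vehicle libraries and 2.77 FPKM in the Cancer-labelled one. H2-DMb1 was at 4.06, 1.71 and 1.69 FPKM, then 5.45, 2.67 and 1.87 FPKM, then 5.88 FPKM. For both, the same 3 libraries were the highest.

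The remaining class II genes were near the lower limit of the table. Ciita, the activator, was between 0.0546 and 0.539 FPKM, with the Cancer-labelled library, vehicle replicate 1 and MSC replicate 0 again the 3 highest. H2-DMb2 lay between 0.127 and 0.842 FPKM. H2-Oa and H2-Ob, the chains of the inhibitor of peptide exchange in B cells, reached at most 0.468 and 0.301 FPKM. H2-Ea was listed at 0 in 6 libraries and at 0.0412 FPKM in vehicle replicate 3. Mice with the b haplotype of C57BL/6 lack H2-Ea expression. H2-Eb2 reached at most 0.164 FPKM. Unlike Ciita, H2-DMb2, H2-Ob and H2-Eb2 had the Cancer-labelled library and vehicle replicates 1 and 3 as their 3 highest. For H2-Oa the 3 highest were MSC replicate 0, the Cancer-labelled library and MSC replicate 1.

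**Figure D2:**
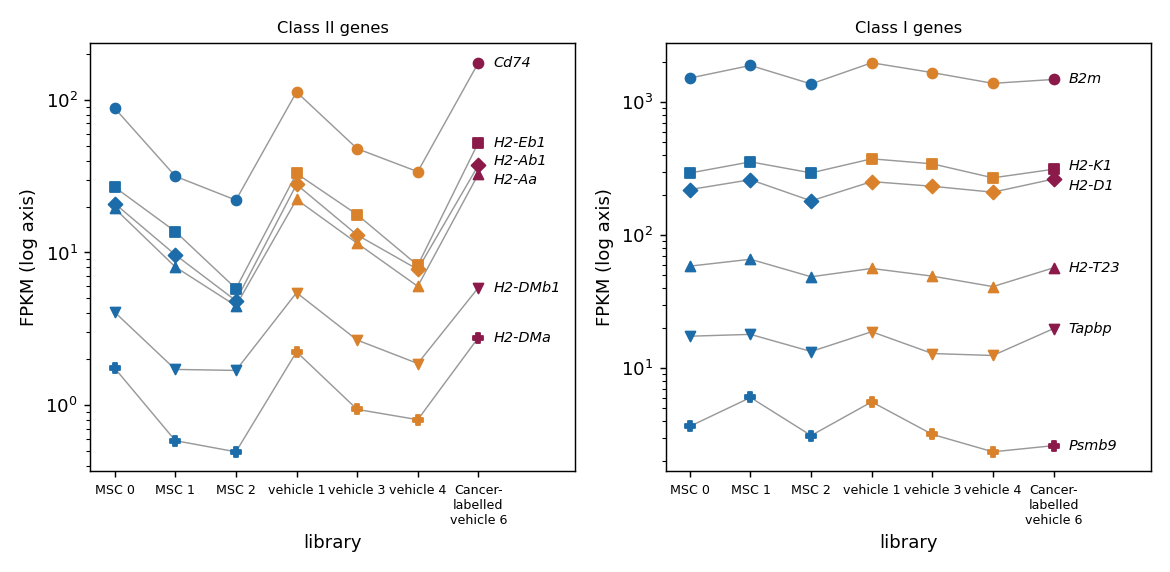
FPKM (log axis) of 6 class II genes (left) and 6 class I genes (right) in each library (x axis), with blue for MSC, orange for vehicle and dark red for the Cancer-labelled library. Lines join the libraries of 1 gene and carry no order in time. Cd74 runs from 22.0 to 175 FPKM, and the 5 genes below it share its highest and its lowest library. The highest stands 7.94-fold over the lowest for Cd74, 5.60-fold for H2-DMa and 3.48-fold for H2-DMb1. B2m stays between 1372 and 1979 FPKM.

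The order of the libraries was described for the genes tested, after the values had been seen. The Cancer-labelled library, vehicle replicate 1 and MSC replicate 0 were the 3 highest for the 6 tested class II genes (H2-Aa, H2-Ab1, H2-Eb1, Cd74, H2-DMa and H2-DMb1) and for 10 of 32 tested genes of the set, beside 28.8% of all 12265 genes. H2-DMa reached 1 FPKM in just those 3 libraries, and H2-M2 in the Cancer-labelled library and vehicle replicate 1, so both were tested because of the libraries ranked here. The class II count was 6 of 6 also with TPM, median centring and quantile normalization, where the share of all genes was 48.3%, 6.42% and 7.42%. An order of all 7 libraries identical to that of H2-Aa was found for H2-Ab1, H2-Eb1 and H2-Aa itself, and for 0.644% of all genes. Vehicle replicate 1 and MSC replicate 1 were the 2 highest for 8 of the 32 (B2m, H2-K1, H2-Q7, H2-T10, H2-T22, Psmb8, Psmb9 and Tap1), beside 3.02% of all genes. That count was 7 with median centring and 6 with quantile normalization, and it fell to 2 (H2-T10 and Psmb9) with TPM, where 1.22% of all genes had it.

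The spread between replicates differed in the same way. The median SD within groups, over the 6 MSC and vehicle libraries on the log2(FPKM + 1) scale, was 0.91 for the 3 tested class II chains, 0.21 for the 2 classical class I heavy chains, 0.24 for all 10534 genes tested and 0.33 for the 29 tested genes of the set. H2-Eb1 stood at percentile 99.0 of all genes tested by this SD, Cd74 at 98.8, H2-Aa, H2-Ab1 and H2-Q1 at 98.6 and B2m at 52.4. Psmb10 had the smallest SD of the set, 0.13.

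Treatment with MSC was compared with vehicle to ask what the cells change in NASH liver. No gene of the set differed in limma with Benjamini-Hochberg adjustment (adjusted p under 0.05): 0 of 29 tested, beside 0.0190% of 10534 genes (2 genes). At an unadjusted p under 0.05 the count was also 0 of 29, beside 5.59% of all genes. The MSC and vehicle libraries did not separate for any of the 29, whereas 10.0% of all genes had groups without overlap (7.84% with all MSC libraries below and 2.17% with all above). The median log2 difference was -0.01 over the 29 (14 higher and 15 lower in MSC), beside -0.05 over all genes. With TPM the median of all genes shifted to -0.14 and that of the set to -0.12.

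By role, the class II chains were on average lower in MSC, by less than the replicate spread. H2-Aa averaged 10.6 ± 7.81 FPKM (SD, n = 3) with MSC and 13.2 ± 8.26 FPKM (SD, n = 3) with vehicle. Its log2(FPKM + 1) difference was -0.34 ± 0.53 (SE; limma, Benjamini-Hochberg adjusted p = 0.995). Cd74 averaged 47.2 ± 35.7 and 64.8 ± 42.0 FPKM (SD, n = 3 each), a difference of -0.51 ± 0.56 (SE; limma, adjusted p = 0.995). The direction rested on single libraries: over the 5 tested class II genes the differences lay between -0.51 and -0.29 with all 6 libraries, between -0.02 and 0.10 without vehicle replicate 1, and between -0.14 and 0.17 without MSC replicate 2. They lay between -1.08 and -0.60 without MSC replicate 0, with a lowest adjusted p of 0.568.

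For class I the averages were close. H2-K1 averaged 315 ± 35.9 and 330 ± 54.1 FPKM (SD, n = 3 each), a log2 difference of -0.06 ± 0.24 (SE), and B2m 1593 ± 267 and 1678 ± 296 FPKM, a difference of -0.07 ± 0.32 (SE). H2-Q10 averaged 391 ± 77.9 and 362 ± 43.7 FPKM, a difference of 0.10 ± 0.26 (SE). The signs of these small differences change with the scaling or with 1 library left out. The log2 differences of the immunoproteasome subunits were 0.05 for Psmb8 (-0.04 with TPM), 0.18 for Psmb9 and 0.22 for Psmb10, and those of the constitutive partners were 0.04 for Psmb5, 0.22 for Psmb6 and 0.03 for Psmb7. The lowest adjusted p of the set in limma was 0.950, for H2-T-ps (1.59 ± 0.358 FPKM with MSC and 0.896 ± 0.549 FPKM with vehicle, SD, n = 3 each). The 12 genes not tested, which include Ciita, H2-DMa and H2-M2, did not reach 1 FPKM in 3 of the 6 libraries.

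**Figure D3:**
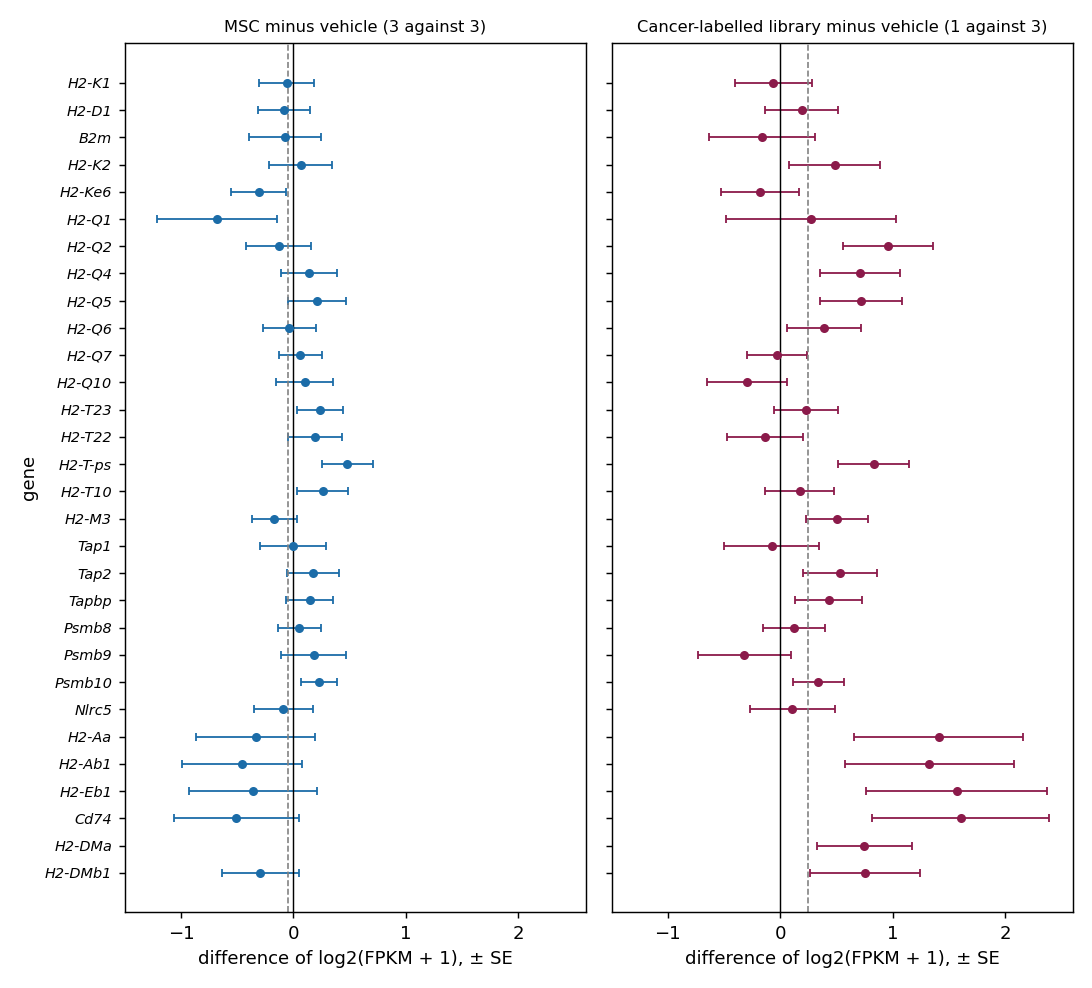
Difference of log2(FPKM + 1) with its SE (bars) for each gene, MSC minus vehicle (left) and the Cancer-labelled library minus vehicle (right). The solid line is 0 and the dashed line is the median of all genes tested, -0.05 and 0.25. Cd74 and the class II chains H2-Eb1, H2-Aa and H2-Ab1 lie farthest to the right in the right panel, and H2-DMa was not tested in the left panel.

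The Cancer-labelled library was set against the 3 vehicle libraries as a group of 1, with its spread taken from the other libraries. Cd74 and the 3 tested class II chains had the 4 largest differences of the set on the log2(FPKM + 1) scale: 1.61 ± 0.79 (SE) for Cd74, 1.57 ± 0.80 for H2-Eb1, 1.41 ± 0.75 for H2-Aa and 1.33 ± 0.75 for H2-Ab1, with 0.75 for both H2-DMa and H2-DMb1. In FPKM, Cd74 was 2.70-fold, H2-Eb1 2.68-fold and H2-Aa 2.46-fold over the vehicle mean. The low gene H2-M2 had a larger ratio (3.52-fold). The low genes H2-Q2 (2.70-fold) and H2-T-ps (2.55-fold) lay within the range of Cd74, H2-Eb1 and H2-Aa. None of the 6 tested class II genes passed limma with Benjamini-Hochberg adjustment. In the whole set 0 of 32 passed, beside 4.17% of 12265 genes, and 3 of 32 (H2-M2, H2-Q2 and H2-T-ps) had an unadjusted p under 0.05, beside 17.2% of all genes. H2-M2, H2-DMa and H2-T24 passed the filter on low values only with the Cancer-labelled library. The class II differences and the count of 3 turn on single vehicle libraries. Without vehicle replicate 1 the class II differences lay between 1.08 and 2.09, the lowest adjusted p over the 32 was 0.0504 and 13 had an unadjusted p under 0.05. Without vehicle replicate 4 the class II differences lay between 0.50 and 1.24, the lowest adjusted p was 0.417 and 0 had an unadjusted p under 0.05.

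Most genes were higher in the Cancer-labelled library, so its differences have to be read against a shift: the median over all genes was 0.25, and 0.36 over the 32. The Cancer-labelled library was the highest of 7 for 16 of the 32, beside 46.5% of all genes, and the lowest of 7 for 1 of the 32 (H2-Q10), beside 4.88% of all genes. With median centring the median of all genes moved to -0.06 and that of the set to 0.05. The library was then the highest for 8 of the 32, among them Cd74, H2-Aa, H2-Ab1, H2-DMa and H2-Eb1, beside 18.7% of all genes. At least 2-fold over the vehicle mean were 8 of the 32, Cd74, H2-Aa, H2-Ab1, H2-DMa, H2-Eb1, H2-M2, H2-Q2 and H2-T-ps, beside 15.8% of all genes. B2m (-0.16), H2-K1 (-0.06) and H2-Q10 (-0.29) had negative differences, which turn to 0.36, 0.29 and 0.03 with quantile normalization.

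Summed markers of dendritic cells, of T and NK cells and of bile duct cells had the same 3 highest libraries as class II. The sums of B cell, macrophage, sinusoidal endothelium, stellate cell and hepatocyte markers did not. Single tested markers were mixed. Those 3 libraries were the highest for 1 of 3 dendritic cell, 2 of 3 T and NK cell and 1 of 4 bile duct markers. They were also the highest for 3 of 7 macrophage and Kupffer cell markers (Cd68, Csf1r and Lyz2), beside 28.8% of all genes. Itgax reached 1 FPKM in just those 3 libraries, and Cd8a and Cd8b1 passed the filter through the Cancer-labelled one. In bulk tissue fewer cells of a type and less RNA per cell cannot be told apart. The 9 dendritic cell markers, with Flt3, Zbtb46 and Xcr1 among them, summed to 3.79, 2.02 and 1.29 FPKM in the MSC libraries, 5.87, 2.29 and 3.34 FPKM in the vehicle libraries and 8.09 FPKM in the Cancer-labelled library. Clec10a was listed at 0 in MSC replicates 1 and 2 and vehicle replicate 3, and Cd209a and Ccr7 in MSC replicate 2. The 10 T and NK cell markers summed to 6.44, 1.95 and 0.966 FPKM, then 4.99, 4.53 and 2.06 FPKM, then 7.05 FPKM, with Ncr1 at 0 in MSC replicates 0 and 2 and vehicle replicate 4. The 8 B cell markers summed to 2.38, 1.10 and 0.448 FPKM, then 2.03, 1.86 and 1.88 FPKM, then 1.82 FPKM, with Cd79a and Cr2 at 0 in MSC replicate 2 and Fcrla at 0 in MSC replicate 1. B cell markers were thus no higher in the Cancer-labelled library than in the vehicle libraries.

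The 9 macrophage and Kupffer cell markers summed to 240, 63.6 and 139 FPKM in the MSC libraries, 207, 101 and 233 FPKM in the vehicle libraries and 231 FPKM in the Cancer-labelled one. In MSC minus vehicle, 0 of their 7 tested genes passed, with a median difference of -0.36. In the Cancer-labelled library these markers moved both ways. Adgre1, Csf1r, Cd68 and Lyz2 were at 1.18-, 1.74-, 1.82- and 2.09-fold of the vehicle mean. Clec4f, Vsig4 and Cd5l were at 0.33-, 0.51- and 0.56-fold, and the untested Timd4 and Marco at 0.32- and 0.26-fold. The 4 bile duct markers summed to 57.0 FPKM in the Cancer-labelled library, 2.55 to 4.76 FPKM with MSC and 2.75 to 6.72 FPKM with vehicle. Krt19 was at 24.4 FPKM in that library and at most 1.11 FPKM in the others. Krt7, Krt19 and Sox9 passed the filter only with that library. Epcam, which reached 1 FPKM in every library, was at 21.6 FPKM there and 2.45 ± 1.48 FPKM (SD, n = 3) with vehicle (limma, adjusted p = 0.0163). The 4 sinusoidal endothelium markers summed to 37.1, 5.69 and 25.5 FPKM with MSC, 25.8, 9.57 and 23.4 FPKM with vehicle and 13.5 FPKM in the Cancer-labelled library, an order unlike that of class II. The part of these cells in the class II values was not tested.

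**Figure D4:**
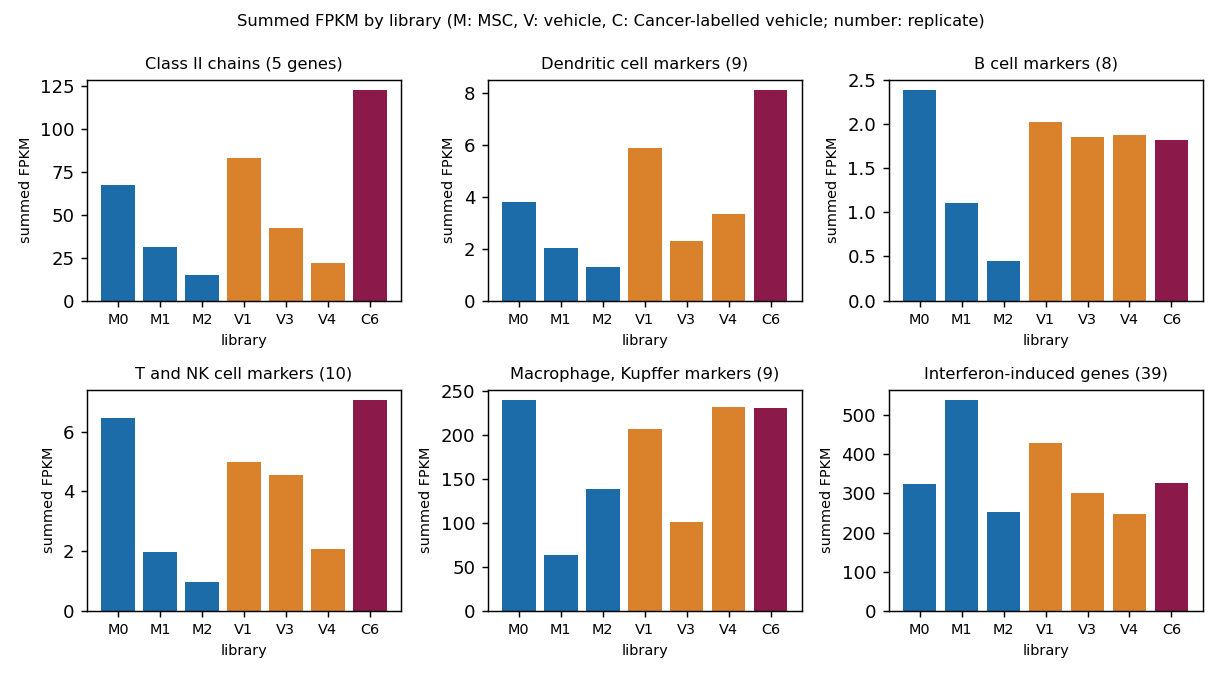
Summed FPKM (y axis, from 0, its own scale in each panel) of the class II chains and of 5 gene lists in each library. The class II chains run from 15.1 FPKM in MSC replicate 2 to 123 FPKM in the Cancer-labelled library, the dendritic cell list runs from 1.29 to 8.09 FPKM in the same 2 libraries, and the interferon-induced list peaks at 539 FPKM in MSC replicate 1.

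Genes that work beside the set were counted from lists. Of 12 class I loading genes outside the set, 0 passed in MSC minus vehicle, with a median difference of 0.15. An unadjusted p under 0.05 in limma was found for 3 (Calr, Pdia3 and Hspa5), beside 5.59% of all genes. Positive differences were found for 9, beside 4207 of all 10534 genes tested. The largest were chaperones of the endoplasmic reticulum with many other clients. Calr (calreticulin) was at 241, 163 and 180 FPKM with MSC and 150, 75.4 and 93.8 FPKM with vehicle, without overlap. All MSC libraries stood above the vehicle libraries for 2.17% of all genes. The difference of Calr was 0.90 ± 0.30 (SE; limma, adjusted p = 0.701). Pdia3, which works with tapasin, was at 171, 112 and 149 FPKM and 113, 60.0 and 62.1 FPKM, where MSC replicate 1 and vehicle replicate 1 overlap (0.91 ± 0.30, adjusted p = 0.701). In the Cancer-labelled library 0 of the 12 passed.

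Of 11 tested genes of class II processing outside the set, 0 passed in either comparison. Ctss (cathepsin S), which trims the invariant chain, was at 63.4, 24.0 and 26.2 FPKM in the MSC libraries, 76.2, 29.1 and 42.7 FPKM in the vehicle libraries and 89.2 FPKM in the Cancer-labelled one, with the same 3 highest libraries as class II. Those 3 were the highest for 7 of the 11, beside 28.8% of all genes. The count was 9 with TPM (48.3% of all genes), 3 with median centring (6.42%) and 7 with quantile normalization (7.42%). Cd63, a protein of the vesicles where class II is loaded, was at 21.5 FPKM in the Cancer-labelled library and 4.82 ± 3.33 FPKM (SD, n = 3) with vehicle, a log2 difference of 2.11 ± 0.67 (SE; limma, adjusted p = 0.147).

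Of the regulators, 0 of 15 passed in MSC minus vehicle and 0 of 16 in the Cancer-labelled library. Ifngr1, a chain of the interferon-γ receptor, was at 10.1, 4.70 and 4.22 FPKM with MSC, 8.44, 6.87 and 5.84 FPKM with vehicle and 19.8 FPKM in the Cancer-labelled library (1.38 ± 0.41, SE; limma, adjusted p = 0.121). Rfx5, a factor known to bind X boxes, was at 2.34, 2.23 and 1.11 FPKM with MSC and 1.49, 1.49 and 1.37 FPKM with vehicle. In the Cancer-labelled library Rfx5 was at 3.11 FPKM, a log2 difference of 0.75 from vehicle. Its 3 highest libraries were the Cancer-labelled one and MSC replicates 0 and 1, which are not the 3 highest of class II. Of the promoters printed above, those of H2-Aa and H2-Eb1 hold an X box core, and binding was not tested.

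Of the interferon-induced genes, 0 of 32 passed in MSC minus vehicle (limma), beside 0.0190% of all genes. The count was also 0 at an unadjusted p under 0.05, beside 5.59% of all genes. Over the 35 tested in the Cancer-labelled library the median log2 difference from vehicle was -0.09, beside 0.25 over all genes. For 15 of the 35, vehicle replicate 1 and MSC replicate 1 were the 2 highest libraries, beside 3.02% of all genes. B2m and H2-K1 had the same 2 highest in FPKM, but neither did with TPM, and H2-K1 did not with median centring. Isg15, a ubiquitin-like interferon-induced protein, was at 7.98, 19.2 and 8.47 FPKM with MSC, 11.7, 6.12 and 5.14 FPKM with vehicle and 7.46 FPKM in the Cancer-labelled library. The count of interferon-induced genes with those 2 libraries highest was 10 with TPM, beside 1.22% of all genes. It was 18 with median centring or quantile normalization, beside 3.12% and 3.57% of all genes.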

How the data were processed

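Total RNA of 7 liver samples was sequenced. The authors deposited 1 table of FPKM per gene and library, per the file headers. The submitters' processing notes name StringTie 2.1.6, HISAT2 2.2.1, FastQC 0.11.9 and cutadapt 1.9 as tools, and GRCm38 and mm10 as builds, without role or order; for strand handling the sources used here give nothing. FPKM is a share of the library, so abundant transcripts lower the values of all other genes. Low values did not fall on whole multiples of 1 read, so depth is not known and counting intervals are left out.

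Groups followed the labels. Values were analysed as log2(FPKM + 1), which understates changes of low genes. MSC and vehicle were compared in limma (eBayes with trend, Benjamini-Hochberg over all genes tested, adjusted p under 0.05) where a gene reached 1 FPKM in 3 or more of 6 libraries. The Cancer-labelled library was compared in a limma model of 3 groups, where a gene reached 1 FPKM in that library or in 3 of the 7. The members and lists were chosen with earlier results of these data known. Members with a mean of at least 1 FPKM were to be given with their values; the less abundant of them, and all others, are given by range, and up to 4 genes of lowest p per list are named; Ctss, Isg15 and the account of H2-M2 were picked after their values were seen. The symbols March1, March8 and Tnfsf4 matched no gene listed. March1 and March8 are listed as Marchf1 and Marchf8, which were kept among the class II processing genes. Alternatives covered the pseudocount (0.1 and 5), the filter, 3 other scalings (TPM, quantile normalization, median centring), limma without trend and robust, the Cancer-labelled library pooled with vehicle, a fit over 3 groups and each library left out; orders under other scalings were added after seeing the data. Shared stretches came from GENCODE transcripts of GRCm38. The statistical steps were first tested on simulated data. Software was R 4.3.3, limma 3.58.1, data.table (version 1.17.8), Python 3.11.15, matplotlib 3.10.9 and pandas 2.3.3.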

Additional observations from a re-analysis of the deposited data

How the results depend on the processing

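No gene of the set passed the threshold in any alternative run, in either comparison. The median over the set lay between -0.12 and 0.15 in MSC minus vehicle, against -0.01, and between 0.05 (median centring) and 0.56 (without vehicle replicate 1) for the Cancer-labelled library, against 0.36. Counts over all genes did move. In MSC minus vehicle, 2 genes passed in the analysis reported, 1 with the Cancer-labelled library pooled with vehicle, and 1 to 8 with 1 library left out (8 without vehicle replicate 1). For the Cancer-labelled library 511 passed in the analysis reported, 13 with pseudocount 0.1, 838 with pseudocount 5, 1035 without a filter, 117 with a filter on the mean, and 267 to 631 with 1 library left out.

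Log2 differences of some genes, none of them past the threshold, changed sign. In MSC minus vehicle these were, with TPM, H2-K2 (-0.028), H2-Q10 (-0.0043), H2-Q7 (-0.039) and Psmb8 (-0.043). With median centring they were H2-Q6 (0.0019) and Tap1 (0.034), and with quantile normalization H2-D1 (0.049), H2-K1 (0.11) and Tap1 (0.044). With that library pooled with vehicle they were H2-K2 (-0.058), H2-Q4 (-0.040) and Tap1 (0.012). For the Cancer-labelled library, H2-Q7 turned to 0.028 with TPM. Median centring turned H2-D1 (-0.12), H2-Q1 (-0.038), H2-T10 (-0.14), H2-T23 (-0.086), Nlrc5 (-0.20) and Psmb8 (-0.19). Quantile normalization turned B2m (0.36), H2-K1 (0.29), H2-Q10 (0.029), H2-T10 (-0.29), Nlrc5 (-0.23) and Psmb8 (-0.10). With 1 library left out, the differences that changed sign in MSC minus vehicle ranged as follows: B2m -0.20 to 0.054, H2-Aa -0.85 to 0.10, H2-Ab1 -0.95 to 0.0035, H2-D1 -0.21 to 0.051, H2-DMb1 -0.60 to 0.036, H2-Eb1 -0.85 to 0.17, H2-K1 -0.20 to 0.039, H2-K2 -0.22 to 0.28, H2-Q10 -0.049 to 0.23, H2-Q2 -0.39 to 0.094, H2-Q4 -0.061 to 0.35, H2-Q6 -0.23 to 0.13, H2-Q7 -0.054 to 0.19, Nlrc5 -0.29 to 0.13, Psmb8 -0.090 to 0.19, Psmb9 -0.045 to 0.45, Tap1 -0.18 to 0.30. For the Cancer-labelled library they were H2-K1 -0.20 to 0.040, H2-Q1 -0.26 to 0.56, H2-Q7 -0.094 to 0.084, H2-T22 -0.30 to 0.055, Nlrc5 -0.091 to 0.30, Psmb8 -0.017 to 0.27, Tap1 -0.25 to 0.23. The cause was not tested.

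No paired analysis was possible because the MSC and vehicle groups share only 1 replicate number. With 3 libraries a group, and a Cancer-labelled group of 1 whose spread is assumed to be like that of the others, class II differences of the size seen could not be told from the spread between libraries. Genes under 1 FPKM, Ciita among them, were described by their values only.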

Other observations

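Class I-like genes outside the MHC were listed too. Of the 5 tested, 0 passed in either comparison (limma, 1 at an unadjusted p under 0.05 in MSC minus vehicle), and all 5 had negative differences in MSC minus vehicle, with a median of -0.26. Hfe, which encodes a class I-like regulator of iron uptake and pairs with B2m, was at 9.58, 7.77 and 8.50 FPKM with MSC and 11.8, 11.1 and 13.7 FPKM with vehicle. The groups did not overlap for Hfe, and its log2 difference was -0.45 ± 0.16 (SE; limma, Benjamini-Hochberg adjusted p = 0.749). They did not overlap either for Fcgrt (47.6, 45.9 and 47.1 FPKM with MSC, 57.3, 62.6 and 54.4 FPKM with vehicle). The same held for Cd1d1 (55.3, 56.1 and 49.7 FPKM, then 67.5, 61.9 and 62.4 FPKM). Azgp1 and Mr1, also tested, had groups that overlapped. All MSC libraries stood below the vehicle libraries for 7.84% of all genes. Negative differences in MSC minus vehicle were found for 6327 of all 10534 genes tested. In the Cancer-labelled library Hfe was at 12.9 FPKM, within the vehicle range.

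H2-M2, a class Ib gene under the filter in MSC minus vehicle, was at 0.822, 0.290 and 0.0573 FPKM with MSC, 1.39, 0.348 and 0.295 FPKM with vehicle and 2.39 FPKM in the Cancer-labelled library. Its 3 highest libraries were those of the class II genes. It reached 1 FPKM in just 2 libraries and was tested because of the Cancer-labelled one, so its difference there is not read as a result.

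The 8 costimulation genes in the table, among them Cd80, Cd86 and Cd40, summed to 1.47 to 4.15 FPKM with MSC, 1.94 to 4.25 FPKM with vehicle and 4.17 FPKM in the Cancer-labelled library. None of them was high enough to be tested in MSC minus vehicle, and Pdcd1lg2 was listed at 0 in all 3 MSC libraries and in vehicle replicate 4.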
